A study of Mus musculus with 12 samples.

Results

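Cryab and other heat shock genes were described in sorted mouse prostate epithelial cells, from a list of 10: Cryab, Hspb1, Hspb8, Hspa1a, Hspa1b, Hspa8, Dnajb1, Hsph1, Hsf1 and Bag3. Each gene was represented by a probe set, a group of array probes summarised to a single value, that the annotation assigns to that gene alone. Where a gene had several such sets, the set was selected by the highest mean signal over all libraries. Of the 10 genes, 9 had such a probe set, out of 22180 genes in the whole table, and Hsf1 was not analysed here. All 9 passed the filter on low values described with the processing, as did 20135 genes in all. The list was chosen from the levels these genes showed over the sorted groups, so levels and differences of the listed genes are given as descriptions of these libraries and not as tests.

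Chaperones bind proteins that are unfolded or newly made and keep them from aggregating. Small heat shock proteins such as Cryab, Hspb1 and Hspb8 hold unfolded proteins without using ATP, whereas the HSP70 proteins Hspa1a, Hspa1b and Hspa8 bind and release them in cycles of ATP hydrolysis. J-domain proteins such as Dnajb1 stimulate that hydrolysis, Hsph1 and Bag3 exchange the bound nucleotide, and Hsf1 is the transcription factor that drives the inducible members after heat or other stress to proteins. Cryab is best known from the lens and from muscle.

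The RNA came from wild-type, hormone-naïve male mice, 4 animals numbered 1, 3, 4 and 5, whose strain and age the labels do not give. Cells without the lineage markers CD45, CD31 and Ter119 were sorted on 2 surface proteins into a basal gate (Sca1-intermediate, CD49f-positive), a luminal gate (Sca1-low, CD49f-low) and a gate called Sca1-high (CD49f-positive), and each gate was divided into LY6D+ and LY6D- cells. This gave 6 groups of 2 libraries: luminal from mice 4 and 5, Sca1-high from mice 1 and 5, and basal from mice 3 and 5, so that mouse 5 is in every group and libraries of a mouse are not independent. Values are log2 signals, a gate is given as the mean ± SD over its 4 libraries (n = 4), a group as the mean ± SD of its 2 libraries (n = 2), and a difference as the fitted log2 difference ± SE over 12 libraries. No detection call was used here, so a low signal is not called absence, and in sorted populations fewer cells of a type and less RNA per cell cannot be told apart.

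Libraries of a group correlated at 0.817 to 0.903 over the genes tested. On the leading principal component, which held 25.2% of the variance, the basal LY6D+, basal LY6D- and luminal LY6D- libraries of mouse 5 stood apart at 71.5, 73.1 and 32.9, and in the same 3 libraries fewer genes exceeded the table's lower quartile (18028, 17879 and 17608) than in the others. The Sca1-high LY6D+ library of mouse 5 had the lowest median correlation with the other arrays, 0.807. The probe set of Ly6d itself did not follow the sort: it ran from 4.70 to 5.96 in libraries labelled LY6D+ and from 4.61 to 7.37 in those labelled LY6D-, and was higher in the LY6D+ library of 3 of 6 pairs of a mouse and gate. LY6D+ and LY6D- are used here as the labels of the sort. Why the Ly6d signal did not follow them was not tested. Defining markers followed the gates in part. The prostate secretory gene Pbsn was at 12.8 to 13.1 in the luminal libraries and at 6.94 to 11.5 in the basal ones, and the basal keratin Krt14 was at 10.2 to 11.7 in basal libraries. Of 9 luminal markers, 7 had a lower and 2 a higher mean in basal than in luminal libraries: Foxa1 was at 8.09 ± 0.43 in basal and 6.54 ± 0.57 in luminal libraries, the luminal keratin Krt18 ran from 10.1 to 11.6 and from 10.3 to 11.1, and Krt8 was level at 10.09 ± 0.88 and 10.11 ± 0.39. Krt14 was also at 9.87 and 10.3 in the luminal LY6D+ libraries, against 4.98 and 6.99 in the luminal LY6D- libraries.

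Cryab varied more over the 6 groups than any other listed gene. It was highest in luminal LY6D- cells and lowest in basal LY6D+ cells, and it was lower in the LY6D+ than in the LY6D- library of every mouse and gate. In the luminal gate Cryab read 11.87 in mouse 4 and 11.78 in mouse 5 for LY6D- cells, and 9.44 and 9.36 for LY6D+ cells. In the Sca1-high gate it read 10.76 in mouse 1 and 10.39 in mouse 5 for LY6D- cells, and 10.66 and 8.47 for LY6D+ cells. In the basal gate it read 8.96 in mouse 3 and 9.08 in mouse 5 for LY6D- cells, and 6.71 and 5.42 for LY6D+ cells. All 4 basal libraries were below all 4 luminal libraries, and the Sca1-high libraries lay within or between them, with the LY6D+ library of mouse 5 below both basal LY6D- libraries.

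Ordered by group mean, luminal LY6D- (11.82 ± 0.07) was followed by Sca1-high LY6D- (10.57 ± 0.26), Sca1-high LY6D+ (9.57 ± 1.55), luminal LY6D+ (9.40 ± 0.05), basal LY6D- (9.02 ± 0.08) and basal LY6D+ (6.06 ± 0.91). The Sca1-high LY6D+ mean did not differ from the means of either of its neighbours in this order by more than its SD. The largest step was at the end of the order, 2.96 between basal LY6D- and basal LY6D+. The range of the group means was 5.76, which was larger than that of 99.9% of the genes tested, whose median range was 0.65. Ranges of Hspa1a (3.69), Hspb8 (2.28) and Hspa1b (1.87) came next among the listed genes, and Hspa8 had the smallest range, 0.45.

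**Figure D1:**
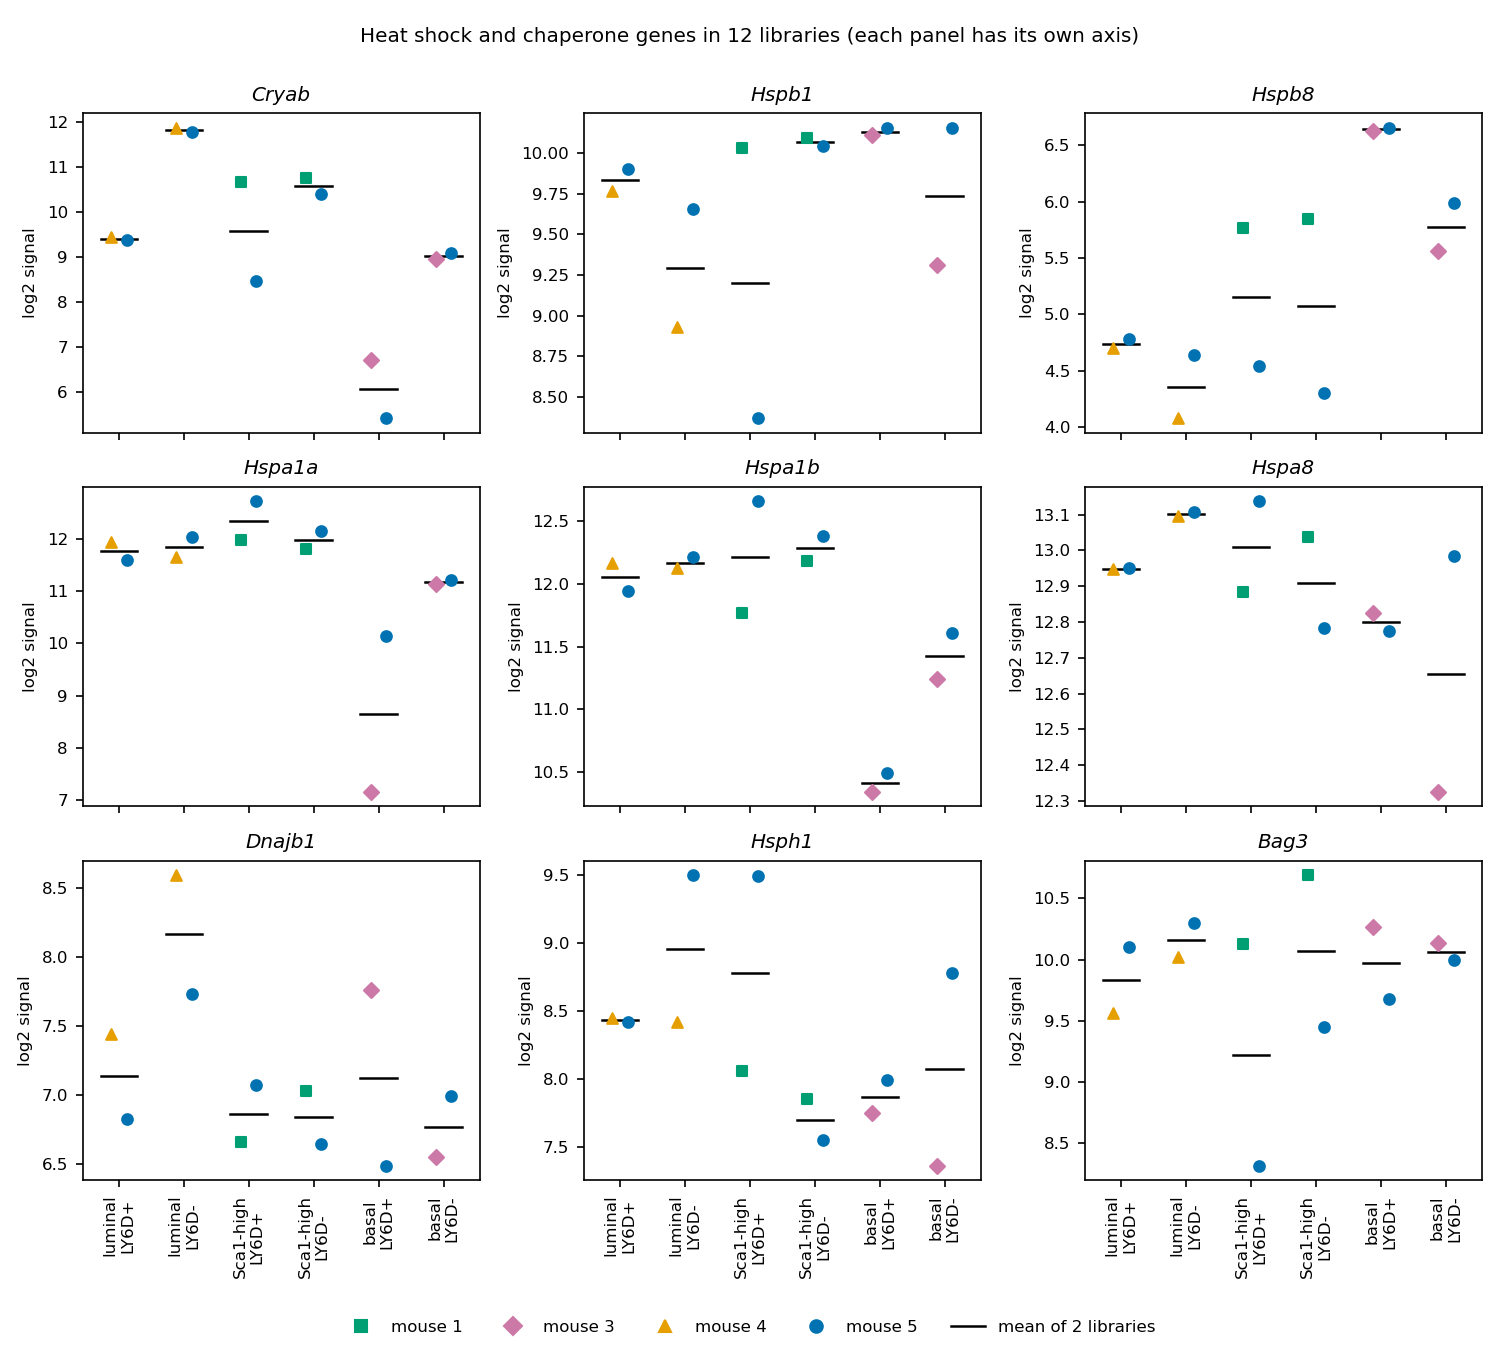
Log2 signal of the 9 listed genes with a probe set, in the 12 libraries. Points are libraries, coloured by mouse, and lines are means of the 2 libraries of a group. Cryab is highest in luminal LY6D- (11.82) and lowest in basal LY6D+ cells (6.06), Hspa1a and Hspa1b are lowest in basal LY6D+ cells, and Hspb8 is highest there (6.64).

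Between gates, Cryab was at 10.61 ± 1.40 in luminal, 10.07 ± 1.08 in Sca1-high and 7.54 ± 1.79 in basal libraries. The basal minus luminal difference was -3.07 ± 0.45, an 8.40-fold higher signal in luminal cells. Cryab was the 1 of 9 listed genes past the adjusted threshold of 0.05 in this comparison (limma over 20135 genes), in which 84 genes, 0.417%, were. This call was lost with mouse as a fixed replicate block, where the difference was -3.32 ± 0.51, but not with mouse as a random block (-3.11 ± 0.43). It was lost without any 1 of 6 libraries: both luminal LY6D+ libraries, the luminal LY6D- library of mouse 5, both basal LY6D+ libraries or the basal LY6D- library of mouse 5 (differences from -3.39 to -2.75). It was also lost without the 3 libraries of mouse 5 that stood apart, where the difference was -2.80. In mouse 5 alone the basal minus luminal difference was -3.32, and between the other mice it was -2.82.

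The Sca1-high minus luminal difference of Cryab was -0.54 ± 0.45, with -1.14 in mouse 5 and 0.06 between the other mice. Sca1-high minus basal was 2.53 ± 0.45, with 2.18 in mouse 5 and 2.88 between the other mice. In these comparisons 0 of the 9 listed genes were past the threshold in limma, beside 28 genes (0.139%) for Sca1-high minus luminal and 2 (0.00993%) for Sca1-high minus basal. At an unadjusted p under 0.05, 1 and 4 of the 9 listed genes stood beside 1693 and 1979 genes in all. With an intensity trend in the fit, 29 and 2 genes were past the threshold.

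LY6D+ minus LY6D- for Cryab was -2.43 in mouse 4 and -2.41 in mouse 5 of the luminal gate, -2.25 in mouse 3 and -3.66 in mouse 5 of the basal gate, and -0.09 in mouse 1 and -1.92 in mouse 5 of the Sca1-high gate. All 6 pairs ran the same way, with the Sca1-high pair of mouse 1 close to 0. Of the genes tested, 280 (1.39%) were lower in the LY6D+ library of all 6 pairs, and Cryab was the only listed gene among them. The fitted differences were -2.42 ± 0.63 in luminal, -1.01 ± 0.63 in Sca1-high and -2.96 ± 0.63 in basal cells, and -2.13 ± 0.37 over the 3 gates. Without the Sca1-high LY6D+ library of mouse 5 the Sca1-high value was 0.09. The difference of the LY6D effect between gates was -0.53 ± 0.90 for basal against luminal, 1.42 ± 0.90 for Sca1-high against luminal and 1.95 ± 0.90 for Sca1-high against basal.

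By the adjusted threshold, 0 of 9 listed genes were called for LY6D in any gate or over the gates. In all genes limma called 0 (0%) in luminal cells, 0 (0%) in Sca1-high cells, 2 (0.00993%) in basal cells and 0 (0%) over the gates, beside 716, 486, 443 and 528 genes at an unadjusted p under 0.05. Of the listed genes 1, 0, 3 and 1 were at an unadjusted p under 0.05, in the same order. These counts come from the fit without a term for mouse. With mouse as a fixed replicate block the differences over the gates were -2.13 ± 0.29 for Cryab and 0.44 ± 0.16 for Hspb8. They were -0.42 ± 0.16 for Bag3 and -0.40 ± 0.16 for Hspa1b. All of these then had an unadjusted p under 0.05 in limma, and none passed the adjusted threshold. In the Sca1-high gate Bag3 was at -0.85 ± 0.28 with this block, also at an unadjusted p under 0.05. So was Hspb8 in the basal gate, at 0.87 ± 0.28. The share of all genes at that mark with this block is not given here, so these values are not read as a result about the list. With an intensity trend the counts of called genes were 2, 0, 0 and 0.

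**Figure D2:**
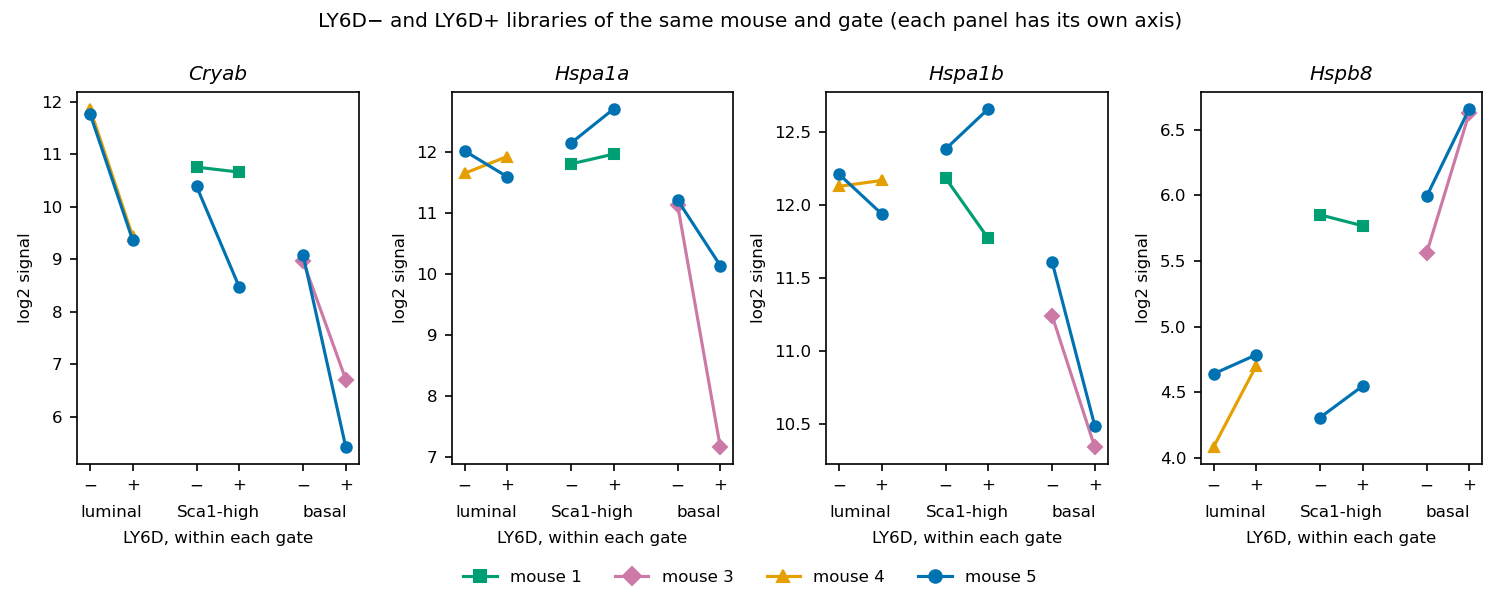
Log2 signal in the LY6D- (left) and LY6D+ (right) library of each mouse and gate, for the 4 listed genes with the largest ranges. Lines join libraries of the same mouse and gate. Cryab is lower in the LY6D+ library of all 6 pairs, Hspa1a and Hspa1b are furthest apart in the basal pairs, and Hspb8 is higher in 5 of 6 pairs.

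A second probe set assigned to Cryab alone gave a like pattern on its own scale. It ran from 9.29 and 9.58 in luminal LY6D- cells through 6.31 and 6.85 in luminal LY6D+ cells to 6.85 and 6.94 in basal LY6D- and 6.05 and 4.56 in basal LY6D+ cells, and the Sca1-high pairs read 8.58 and 7.32 for LY6D- and 7.21 and 6.22 for LY6D+ cells. It was lower in the LY6D+ library of every pair, the Sca1-high pair of mouse 1 included, with a basal minus luminal difference of -1.91 and an LY6D difference over the gates of -1.89. On this probe set the luminal LY6D+ libraries were not above the basal LY6D- libraries, unlike on the set used, and the basal and luminal gates overlapped. It correlated with the probe set used at r = 0.918 over the 12 libraries. A probe set annotated to both Cryab and its head-to-head neighbour Hspb2, another small heat shock gene, ran from 4.53 to 5.20 in all libraries and did not follow either (r = -0.12 over 12 libraries).

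**Figure D3:**
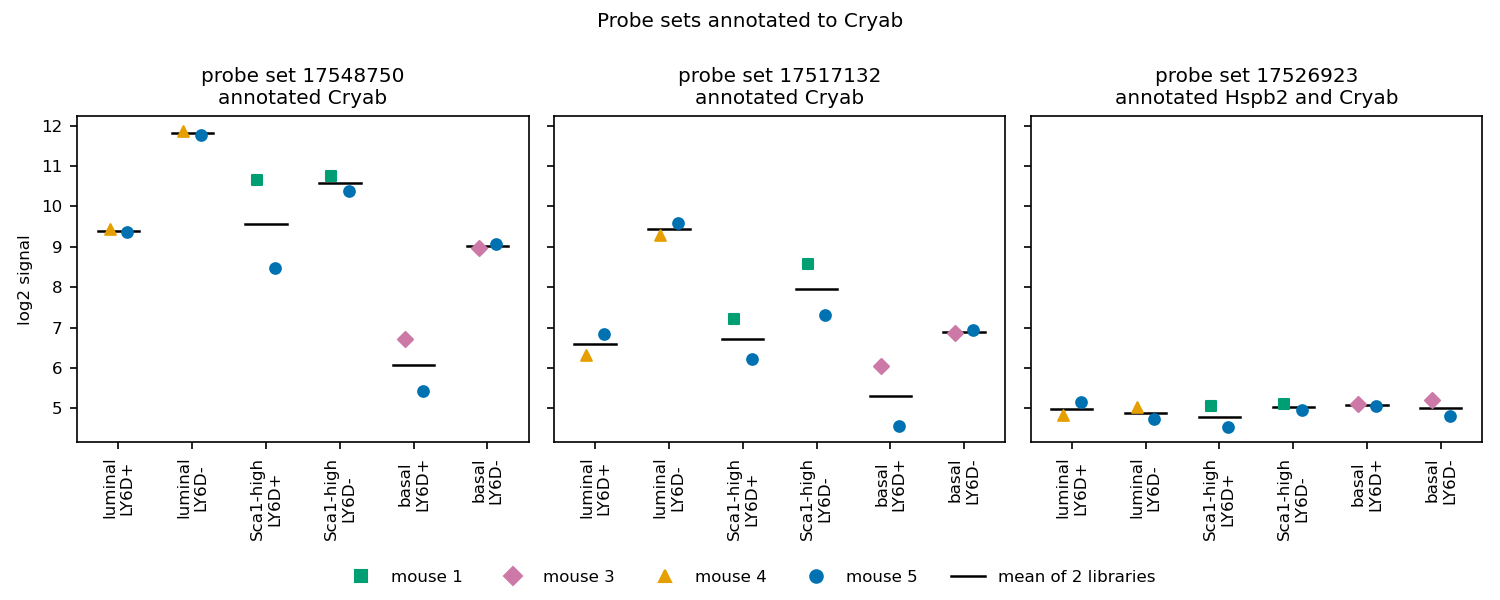
Log2 signal of the 3 probe sets annotated to Cryab, by group and mouse. On the set used the libraries run from 5.42 to 11.87, the other set for Cryab alone runs from 4.56 in basal LY6D+ to 9.58 in luminal LY6D- cells, and the set shared with Hspb2 stays between 4.53 and 5.20.

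Marker genes of several cell types moved with Cryab in some of the groups. Over the 12 libraries, which share mice and gates, the mean of 11 basal epithelial markers correlated with Cryab at r = -0.79: it was 5.08 to 5.47 in luminal LY6D-, 6.52 to 6.54 in luminal LY6D+, 5.91 to 6.75 in Sca1-high and 6.84 to 8.01 in basal libraries. The luminal epithelial mean of 9 markers was 8.12 to 8.71 in luminal, 6.33 to 7.95 in Sca1-high and 6.95 to 8.09 in basal libraries (r = 0.28). The mean of 12 myeloid markers was 6.82 to 8.35 in luminal, 4.61 to 6.36 in Sca1-high and 4.22 to 5.10 in basal libraries (r = 0.61), although the cells were sorted as CD45-negative; all 12 had a lower mean in basal than in luminal cells and 4 passed the threshold. The CD45 gene Ptprc read 5.97 and 8.90 in luminal LY6D-, 4.04 and 6.91 in luminal LY6D+ and 3.25 to 3.76 in basal libraries. Within the Sca1-high gate the myeloid mean and Cryab were both lowest in the LY6D+ library of mouse 5 (4.61, against 5.81 to 6.36 in the others). The myeloid mean overlapped between luminal LY6D+ (7.10 to 7.90) and LY6D- (6.82 to 8.35) cells, and it was higher in basal LY6D+ (4.71 to 5.10) than in basal LY6D- cells (4.22 to 4.63), opposite to Cryab. The endothelial mean was lower in basal LY6D+ (4.26 to 4.55) than in basal LY6D- libraries (6.49 to 6.56), as Cryab was, with 12 of 12 markers lower in the group means and a median difference of -1.44. In luminal LY6D+ and LY6D- libraries the endothelial means overlapped (4.27 to 4.60 and 4.31 to 4.63). Smooth muscle markers, of a tissue known for Cryab, had their highest mean in luminal LY6D- cells (4.90 to 5.32, against 4.57 to 4.94 elsewhere; r = 0.40), and 10 of 12 had a lower mean in luminal LY6D+ than in luminal LY6D- cells, in the direction of Cryab. Among them Acta2 read 6.38 and 8.09 in luminal LY6D- and 5.20 to 6.59 in all other libraries. Myh11 read 6.16 and 6.47 there and 4.60 to 5.25 in all other libraries, and Myl9 read 6.78 and 8.86 there and 5.35 to 8.19 in the others. Between gates the 12 smooth muscle markers were divided, with 5 above and 7 below 0 for basal minus luminal. Against the direction of Cryab, Smtn was at 6.78 ± 1.02 in basal and 4.92 ± 0.36 in luminal libraries. Tagln was at 4.96 ± 0.72 and 4.32 ± 0.37. Means of 12 fibroblast markers ran from 4.87 to 5.68 (r = 0.63), with 8 of 12 lower in basal than in luminal cells. Means of 10 Schwann cell markers ran from 3.65 to 4.84 (r = 0.46), and Pmp2 among them was never above the lower quartile. The Schwann mean was 4.14 to 4.84 in luminal LY6D- and 4.01 to 4.21 in luminal LY6D+ libraries. Of the 9 Schwann markers tested, 9 had a lower mean in basal than in luminal cells, as Cryab did. In LY6D+ minus LY6D-, 7 lay below and 2 above 0 in luminal cells, and 5 below and 4 above in basal cells. The part of these cells in the Cryab differences was not tested.

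Hspb1, a small heat shock protein that binds actin filaments and other partners, differed little between gates. It read 9.77 and 9.91 in luminal LY6D+, 8.93 and 9.65 in luminal LY6D-, 10.03 and 8.37 in Sca1-high LY6D+, 10.09 and 10.04 in Sca1-high LY6D-, 10.11 and 10.15 in basal LY6D+ and 9.31 and 10.16 in basal LY6D- cells, each pair with mouse 5 second. The gates overlapped, and the basal minus luminal difference was 0.37 ± 0.36. The pairs were divided, with 3 lower and 3 higher in LY6D+ cells. The lowest value, 8.37, came from the Sca1-high LY6D+ library of mouse 5. A second probe set of Hspb1 ran from 3.02 to 5.26 and followed the first loosely (r = 0.29).

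Hspb8, which works with Bag3 to pass misfolded proteins to autophagy, ran opposite to Cryab. It read 4.70 and 4.78 in luminal LY6D+ and 4.08 and 4.64 in luminal LY6D- cells, and 6.63 and 6.66 in basal LY6D+ and 5.56 and 5.99 in basal LY6D- cells. In the Sca1-high gate mouse 1 read 5.77 and 5.85 and mouse 5 read 4.55 and 4.31, LY6D+ cells first, so that the animals differed more than the LY6D classes. All 4 basal libraries were above all 4 luminal ones, by 1.66 ± 0.37 in the mean, and basal LY6D+ had the highest group mean, 6.64 ± 0.02. The LY6D+ library was higher in 5 of 6 pairs, by 0.44 ± 0.31 over the gates. The Sca1-high minus luminal difference was 0.57 ± 0.37 but -0.28 in mouse 5 and 1.42 between the other mice. Hspb8 and Cryab correlated at r = -0.92 over the 6 group means and at -0.68 over the 12 libraries.

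Hspa1a and Hspa1b are adjacent, nearly identical genes for the inducible HSP70, and both were lowest in basal LY6D+ cells. Hspa1a read 7.16 in mouse 3 and 10.14 in mouse 5 of basal LY6D+ cells, and 11.13 and 11.22 in basal LY6D- cells. Its luminal libraries lay between 11.60 and 12.02 and its Sca1-high libraries between 11.81 and 12.71. Every basal library was below every library of the other gates. Basal minus luminal was -1.89 ± 0.53 and Sca1-high minus basal 2.25 ± 0.53. Without the basal LY6D+ library of mouse 3 basal minus luminal was -1.14, and without that of mouse 5 it was -2.63. In mouse 5 alone it was -1.13. LY6D+ minus LY6D- was -3.97 in mouse 3 and -1.07 in mouse 5 of the basal gate, and lay between -0.42 and 0.56 in the other pairs.

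Hspa1b read 10.34 and 10.49 in basal LY6D+ cells of mice 3 and 5, and 11.24 and 11.61 in basal LY6D- cells. Its luminal libraries lay between 11.94 and 12.21 and its Sca1-high libraries between 11.77 and 12.66, again all above the basal gate. Basal minus luminal was -1.19 ± 0.22, with -1.03 in mouse 5 and -1.36 between the other mice, and Sca1-high minus basal was 1.33 ± 0.22. In the basal gate LY6D+ minus LY6D- was -0.90 in mouse 3 and -1.12 in mouse 5, and the other pairs lay between -0.41 and 0.28. Hspa1a and Hspa1b correlated at r = 0.88 over the 12 libraries, and since the genes are near-identical copies, probes of one can read RNA of the other, so their separate levels are uncertain.

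A probe set annotated to both genes placed the basal gate lowest as well, but differed in the Sca1-high gate. It read 7.83 and 7.85 in basal LY6D+ cells, 8.84 and 8.72 in basal LY6D- cells, 8.42 to 9.65 in Sca1-high and 9.48 to 10.39 in luminal cells. Its Sca1-high minus luminal difference was -0.78, against 0.36 ± 0.53 for Hspa1a and 0.14 ± 0.22 for Hspa1b on their own sets.

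Endothelial markers were also lower in basal LY6D+ than in basal LY6D- libraries, in the group means of 12 of 12, with 0 past the threshold and 7 at an unadjusted p under 0.05 in limma, a mark that 443 of all genes reached (2.20%). The mean of 12 such markers was 4.26 to 4.55 in basal LY6D+ but 6.49 to 6.56 in basal LY6D- cells and 5.49 to 6.87 in Sca1-high cells, although the sort was CD31-negative; the CD31 gene Pecam1 read 8.19 and 8.62 in basal LY6D- and 5.70 and 7.18 in basal LY6D+ cells. In luminal cells, where Hspa1a and Hspa1b were high, the endothelial mean was 4.27 to 4.63. Immediate early genes, which many stimuli induce within a short time, had a mean that was not low in basal LY6D+ cells. Over 16 of them it was 8.83 in both libraries, against 8.28 to 8.67 in basal LY6D-, 8.38 to 8.88 in luminal and 7.09 to 8.51 in Sca1-high libraries. Of the 16, 13 had a higher and 3 a lower mean in basal LY6D+ than in basal LY6D- cells, and Fos (5.04 and 5.80) and Jund (7.85 and 8.43) had their lowest group mean of all in basal LY6D+ cells. The part of either list in the HSP70 differences was not tested.

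The stretches before the starts of Hspa1a and Hspa1b are shown because these genes moved together, with that of Hspb1, an inducible gene that did not move with them. Sequences are from RefSeq on GRCm38.p6, 5′ to 3′ on the gene's strand, and give the 250 bases before the annotated start. Capitals mark matches to GAANNTTC, a pair of inverted units of the heat shock element that Hsf1 binds, which reads the same on both strands. Hspa1a lies on chromosome 17, minus strand (chr17:34972157-34972406), Hspa1b on the same strand (chr17:34959239-34959488), and Hspb1 on chromosome 5, plus strand (chr5:135887669-135887918).
Hspa1a: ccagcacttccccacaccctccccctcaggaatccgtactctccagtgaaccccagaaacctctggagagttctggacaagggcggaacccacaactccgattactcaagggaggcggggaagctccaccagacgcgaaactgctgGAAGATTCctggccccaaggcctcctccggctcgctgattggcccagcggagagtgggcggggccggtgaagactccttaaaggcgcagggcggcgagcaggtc
Hspa1b: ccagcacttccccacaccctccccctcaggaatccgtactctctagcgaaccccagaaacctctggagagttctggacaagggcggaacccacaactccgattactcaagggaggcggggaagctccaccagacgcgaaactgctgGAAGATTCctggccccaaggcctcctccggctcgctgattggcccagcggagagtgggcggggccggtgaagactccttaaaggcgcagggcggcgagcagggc
Hspb1: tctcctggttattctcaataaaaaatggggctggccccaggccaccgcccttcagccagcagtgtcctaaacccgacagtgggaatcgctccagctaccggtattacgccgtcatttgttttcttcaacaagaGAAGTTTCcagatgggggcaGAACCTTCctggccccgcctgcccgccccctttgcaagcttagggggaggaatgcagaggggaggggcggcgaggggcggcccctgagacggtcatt

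The match begins at base -104 relative to the start in both HSP70 genes, and the matches of Hspb1 begin at bases -117 and -97. In windows of 300 bases, 250 before and 50 from the start on, Hspa1a and Hspa1b differed at 4 positions, counted from 1 at the 5′ end with the Hspa1a base first: C44T, T47C, T249G and C276T. None of these falls in the match. Hspb8 has a GAANNTTC match just past its start, shown with the bases around it, on chromosome 5, minus strand (chr5:116422845-116422872), since it moved against the HSP70 genes.
Hspb8: gaagccaggaGAAGTTTCtaggctcgcg

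Of the 10 genes, 7 had such windows, 9 windows in all, and 6 of these genes had a match to GAANNTTC or to the other orientation TTCNNGAA, also its own reverse complement, anywhere in the window. Hsph1 had both, which overlap by 3 bases, Bag3 had GAANNTTC past its start, and neither was found in the windows of Dnajb1. GAANNTTC occurred in 7.86% and TTCNNGAA in 8.52% of all 32851 windows, and either in 15.1%. The 4 genes with a match before the start were Hspa1a, Hspa1b, Hspb1 and Hsph1, where 12.8% of all windows had either match before the start. Of these genes the first pair was low in basal LY6D+ cells and Hspb1 was not. Hsph1 was at 7.87 ± 0.17 there, against group means of 7.70 to 8.96 elsewhere. Any link between these matches and the levels was not tested.

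Hspa8, the constitutive HSP70, had the smallest range of the listed genes on the probe set used. It ran from 12.33 to 13.14 over all libraries, with gate means of 13.03 ± 0.09 in luminal, 12.96 ± 0.16 in Sca1-high and 12.73 ± 0.28 in basal cells. The lowest value was the basal LY6D- library of mouse 3, and the gates overlapped, with a basal minus luminal difference of -0.30 ± 0.19. Another probe set for Hspa8 alone gave values within 0.031 of these in every library. A set annotated to Hspa8 and Snord14e, a small nucleolar RNA, ran from 4.66 to 11.3 and followed the set used little (r = 0.12), with a basal minus luminal difference of -2.26. Of 2 further sets for Hspa8 alone, one ran from 8.88 to 11.7 with a difference of -0.94 and the other from 10.2 to 11.3 with -0.49, so the small range does not hold on all of them.

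Dnajb1, the J-domain partner of inducible HSP70, was highest in luminal LY6D- cells. It read 8.595 in mouse 4 and 7.74 in mouse 5 there, and 7.44 and 6.83 in luminal LY6D+ cells. Sca1-high libraries lay between 6.65 and 7.07 and basal libraries between 6.49 and 7.76. Only luminal LY6D- cells had a mean above the next group's by more than the SD of either, and even there mouse 5 was level with the basal LY6D+ library of mouse 3. LY6D+ minus LY6D- was -1.03 ± 0.47 in the luminal gate, against 0.03 ± 0.47 in Sca1-high and 0.35 ± 0.47 in basal cells. The luminal value was -0.60 without the LY6D- library of mouse 4 and -1.46 without that of mouse 5. The gate differences were -0.70 ± 0.33 for basal minus luminal and -0.80 ± 0.33 for Sca1-high minus luminal.

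Hsph1, an HSP110-type exchange factor for HSP70, overlapped between all gates. Luminal libraries read 8.42 to 8.45 apart from 9.50 in luminal LY6D- cells of mouse 5, Sca1-high libraries 7.55 to 9.50 and basal libraries 7.36 to 8.78. The high Sca1-high value was the LY6D+ library of mouse 5, where the pair difference was 1.95. Basal minus luminal was -0.73 ± 0.41, with -0.37 without the basal LY6D- library of mouse 3 and -1.08 without that of mouse 5. Bag3, which joins HSP70 to small heat shock proteins, ran from 9.56 to 10.30 in luminal and from 9.68 to 10.27 in basal libraries, a difference of 0.02 ± 0.41 for basal minus luminal, with a Sca1-high mean of 9.65 ± 1.02. Its LY6D+ library was lower in 5 of 6 pairs, with a difference of -0.42 ± 0.34 over the gates, which was -0.12 without the Sca1-high LY6D+ library of mouse 5 and -0.72 without that of mouse 1. Its widest spread was in the Sca1-high gate, where mouse 1 read 10.13 and 10.69 and mouse 5 read 8.32 and 9.45, LY6D+ cells first. The Sca1-high minus luminal difference of Bag3 was -0.35 ± 0.41, with -1.31 in mouse 5 and 0.61 between the other mice. Sca1-high minus basal was -0.37 ± 0.41, with -0.95 in mouse 5 and 0.21 between the other mice.

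The Sca1-high LY6D+ library of mouse 5 held the lowest Hspb1 and Bag3 values of the 12 libraries and the highest Hspa1a, Hspa1b and Hspa8 values. In the same library the means of the immediate early genes (7.09) and of the luminal epithelial markers (6.33) were the lowest of the 12. Cryab (8.47) and Hspb8 (4.55) were not at either end of their ranges in it.

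**Figure D4:**
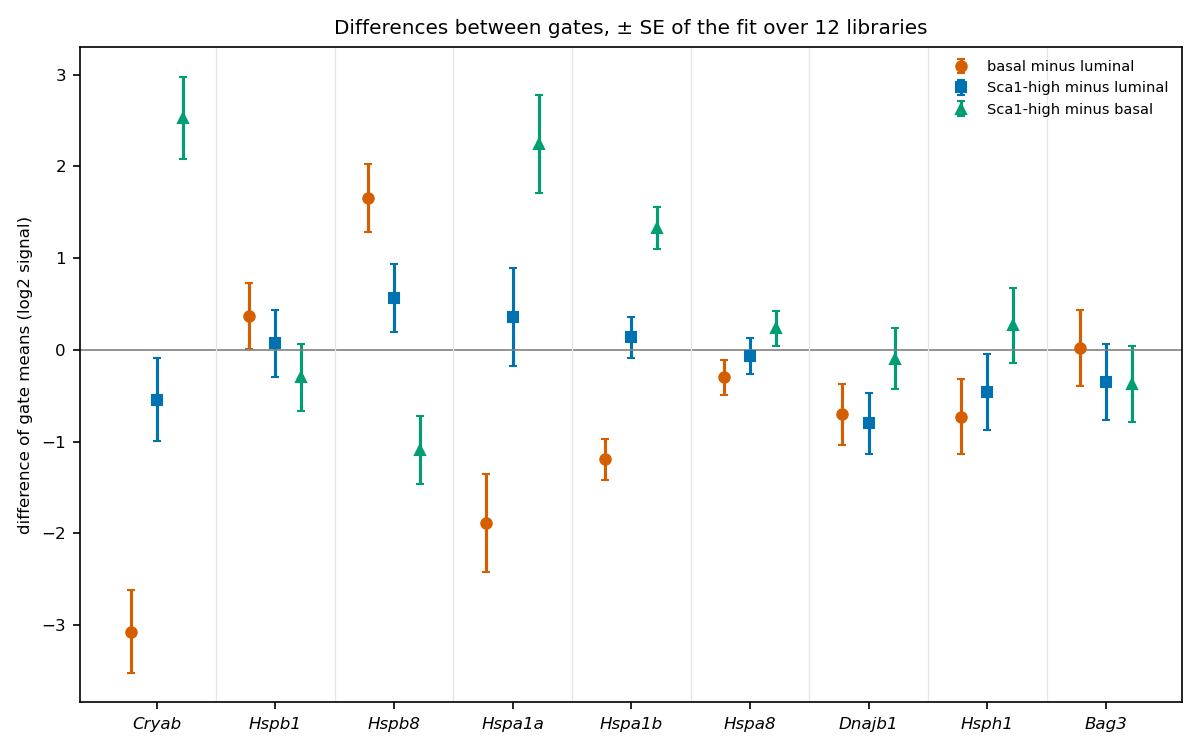
Fitted differences between gates for the 9 listed genes, in log2 signal, with bars of ± 1 SE from the fit over 12 libraries. Cryab, Hspa1a and Hspa1b lie below 0 for basal minus luminal (-3.07, -1.89 and -1.19) and above 0 for Sca1-high minus basal, and Hspb8 lies the other way (1.66). For basal minus luminal Hspa8 lies at -0.30 and Bag3 at 0.02.

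Counted over the list, libraries did not overlap between the basal and luminal gates for 4 of 9 genes, 3 lower (Cryab, Hspa1a and Hspa1b) and 1 higher (Hspb8), where 5.75% of all genes did not overlap. Between Sca1-high and luminal this held for 0 of 9, beside 6.04% of all genes, and between Sca1-high and basal for 2 of 9, Hspa1a and Hspa1b, beside 7.04%. The median basal minus luminal difference was -0.70 over the 9 genes and -0.03 over all genes. These counts use the contrasts from which the list was chosen. They count Hspa1a and Hspa1b as separate genes, although probes of one can read RNA of the other. On the set annotated to both, basal (7.83 to 8.84) stayed below luminal libraries (9.48 to 10.39) but overlapped Sca1-high libraries (8.42 to 9.65). On the second Cryab set the basal and luminal gates overlapped.

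The other chaperone genes, taken from lists drawn up by family, are given by their counts. Of 68 such genes 61 were tested, and 0 passed the threshold in limma in the 3 gate comparisons, where 15, 11 and 12 were at an unadjusted p under 0.05 for basal minus luminal, Sca1-high minus luminal and Sca1-high minus basal. Of all genes tested 9.44% (1901), 8.41% and 9.83% were, in the same order. For basal minus luminal 37 lay above and 24 below 0 with a median of 0.08 against -0.03 over all genes, 10 and 5 of them at an unadjusted p under 0.05, and the lowest adjusted p was 0.227. Of the 6 other small heat shock genes 3 lay above and 3 below 0, with 0 at an unadjusted p under 0.05. In Sca1-high minus luminal all 6 lay above 0 with a median of 0.43, beside 0.07 over all genes. Of the 6, 1 was at an unadjusted p under 0.05 in limma, beside 8.41% of all genes. Among them were Hspb3 (0.49 ± 0.18) and Hspb7 (0.45 ± 0.23), both known from muscle. Their gate means were low, at 3.25 to 4.84, where the median of the table was 3.90.

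Of the 9 other HSP70 and HSP110 genes tested, 4 lay above and 5 below 0 in basal minus luminal, with a median of -0.04. The 2 named by the smallest p both lay above 0, opposite in sign to Hspa1a and Hspa1b. Hspa4, an exchange factor, differed by 1.06 ± 0.34 and Hspa9, the mitochondrial HSP70, by 1.45 ± 0.50, with limma adjusted p of 0.310 and 0.365. Chaperonin genes, whose ring complex folds actin and tubulin, lay above 0 for 10 of 11 in basal minus luminal, with a median of 1.10 and 5 at an unadjusted p under 0.05, beside a median of -0.03 and 9.44% over all genes. Cct5 differed by 1.11 ± 0.35 and Cct4 by 0.78 ± 0.36. J-domain genes were divided, 6 above and 5 below 0. The one furthest from 0 was Dnajc3, a J-domain protein of the endoplasmic reticulum, at 10.46 ± 0.25 in luminal and 8.33 ± 1.19 in basal cells (-2.12 ± 0.58, limma adjusted p = 0.227). Dnajb2 differed by 0.54 ± 0.16 between Sca1-high (4.65 ± 0.19) and basal cells (4.11 ± 0.29).

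For HSP90 and its co-chaperones, 7 of 11 lay above 0 in basal minus luminal; Fkbp4 was at -0.75 ± 0.25 and the myosin chaperone Unc45a at 0.99 ± 0.31. In the list of BAG proteins, exchange factors and quality control, 4 of 8 lay above 0, the autophagy receptor Sqstm1 had a Sca1-high minus luminal difference of -1.74 ± 0.46 (adjusted p = 0.327, limma), and Bag6 differed by 0.57 ± 0.36 in basal minus luminal. Of the heat shock factors and their binding proteins, 5 were tested and 3 lay above 0. Hsbp1, which binds heat shock factors, was at 11.03 ± 0.22 in luminal but 9.66 ± 1.83 in Sca1-high and 8.97 ± 2.04 in basal cells, a difference of -2.06 ± 1.05, and Hsf2bp was at 0.63 ± 0.34.

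Genes whose group means ran most like those of the most variable listed genes were found over all 20135 genes. For Cryab the 5 highest correlations over the 6 group means belonged to E130311K13Rik (r = 0.996), the secretoglobin Scgb1b27 (0.993), the helicase Ddx11 (0.989), the glutathione peroxidase Gpx7 (0.988) and Smap2 (0.987). Their own group means spanned little: E130311K13Rik ran from 2.93 in basal LY6D+ to 3.41 in luminal LY6D- cells and Smap2 from 4.78 to 5.84, and over the 12 libraries they correlated with Cryab at 0.44 to 0.77. For Hspa1a the 5 were Herc3 (0.994), Gm12295 (0.990), the cytokine receptor subunit Csf2rb (0.987), Ank2 (0.985) and Odf2 (0.985), with 0.16 (Ank2) to 0.83 (Gm12295) over the 12 libraries. For Hspb8 they were Dennd2c (0.999), the actin cross-linker Actn4 (0.995), the matricellular gene Ccn2 (0.993), Pitrm1 (0.991) and the actin-binding Nexn (0.990), with 0.20 (Pitrm1) to 0.79 (Actn4) over the 12 libraries. The genes like Hspb8 spanned more, with Pitrm1 at 6.11 in luminal LY6D- and 8.41 in basal LY6D+ cells and Nexn at 3.02 and 5.73. The 6 points share mice, and the correlations are given as a ranking.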

How the data were processed

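For the 12 libraries, column-purified RNA was amplified by NuGEN Ovation V2, biotin-labelled and read on arrays, as the labels state. Each deposited value is a log2 signal of 1 probe set; RMA and oligo are named in the submitters' processing notes without versions or parameters. RMA ordinarily corrects background, normalizes quantiles and summarises probes, which can compress differences at low signal. Values ran from 0.695 to 14.3 with array medians of 3.76 to 3.99 and were used without further normalization. Precision is limited by the number of arrays.

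The table held 41345 probe sets, 23521 with a single symbol in the platform annotation, 1814 with several and 16010 outside it. Genes with at least 2 arrays above the lower quartile of the table (2.98) were tested. A mean per group was fitted to all 12 libraries with limma 3.58.1 in R 4.3.3 (6 residual and 3.28 prior degrees of freedom), with Benjamini-Hochberg adjustment over all genes tested. The fit was tested on simulated data before use. Same-numbered LY6D+ and LY6D- libraries of a gate come from the same mouse and are so paired; their deviations from the group means had r = 0.02 (luminal), 0.15 (Sca1-high) and 0.41 (basal). The reported fit has no term for mouse, which enters as a replicate block in alternatives (consensus correlation 0.15). No statement of the labels says that libraries are more than 1 sort of an animal. The spread within each group is the gap between mouse 5 and 1 other mouse. P-values set a difference against this spread, pooled over the 6 groups and combined with the prior of limma. They treat the libraries as independent. Gate comparisons set partly different animals against each other.

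The listed genes and all gene lists were chosen with earlier results of these data known. Named were all listed genes with a probe set; of the other chaperone lists, every gene past the threshold and per list the 2 with the smallest unadjusted p over the gate comparisons; and, for the 3 listed genes with the largest range, the 5 genes with the highest correlation over group means. Promoter windows and the symbols of 7 of the 10 genes were matched in RefSeq tables (GRCm38.p6). The alternatives are given with the results that depend on them; fitting the other probe sets of a gene was added after seeing the data.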

Additional observations from a re-analysis of the deposited data

Results flagged for a closer look

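In 4 of 27 sets of the 4 libraries of a gate, a single library stood further from the other 3 than Dixon's criterion allows. For 4 independent values of a single population the criterion flags about 1 in 20 sets. The sets here mix LY6D classes and mice and share libraries, so the count cannot be set against that rate. The Sca1-high LY6D+ library of mouse 5 was low for Cryab, at 8.47 against 10.39 to 10.76 in the other Sca1-high libraries, and for Hspb1, at 8.37 against 10.03 to 10.09. Hspb1 was low in the basal LY6D- library of mouse 3, at 9.31 against 10.11 to 10.16 in the other basal libraries. Hsph1 was high in the luminal LY6D- library of mouse 5, at 9.50 against 8.42 to 8.45 in the other luminal libraries.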

How the results depend on the processing

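The basal minus luminal difference of Cryab kept its sign under all 23 alternatives fixed at the outset, from -3.39 to -2.49. It lost its call with mouse as a fixed replicate block (-3.32), with arrays centred on their medians (-3.03) and without the 3 libraries of mouse 5 that stood apart (-2.80), and kept it with mouse as a random replicate block; over single libraries left out the values ran from -3.39 to -2.75. Of 2 alternatives added after seeing the data, the second Cryab probe set gave -1.91, past no threshold, and the set shared with Hspb2 gave 0.11, of opposite sign.

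Counts of listed genes called for basal minus luminal, 1 as reported, became 0 with the fixed block, with centred arrays and without the 3 libraries, 2 with the compared groups alone or when both Sca1-high libraries of mouse 5 were left out, and 0 to 2 over single libraries left out. Hspb8 was the second gene called in both of the named settings with a higher count. Counts over all genes are not given here for those settings, so the rise is not read as a result about the listed genes. For Sca1-high minus basal, single libraries left out gave 0 to 1 listed genes.

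Counts over all genes moved further. Basal minus luminal, 84 as reported, fell to 31 with centred arrays and 0 without the 3 libraries, and ran from 15 to 255 over single libraries. Sca1-high minus luminal, 28, was 104 with the fixed block, 17 centred, 13 with the compared groups alone, 0 without the 3 libraries and 13 to 165 over single libraries. Sca1-high minus basal, 2, was 80 with the fixed block, 1 with means of a gene's probe sets or the compared groups alone, 10 when those of mouse 5 in the Sca1-high gate were left out and 2 to 133 over single libraries. LY6D counts were 1 in luminal cells with the random block or without the 3 libraries and 2 with a trend; in basal cells 0 with the fixed block, probe set means, compared groups alone, without the 3 libraries or with a trend, and 5 when both Sca1-high libraries of mouse 5 were left out, which gave 1 over the gates. Single libraries left out gave 0 to 70, 0 to 17, 0 to 3 and 0 to 2 in luminal, Sca1-high and basal cells and over the gates, and for the differences of LY6D between gates 0 to 7 (Sca1-high against luminal), 0 to 11 (basal against luminal) and 0 to 14 (Sca1-high against basal). Centring moved the median of all genes in Sca1-high minus basal from 0.11 to -0.02. A lone library left in a group was assumed to vary like the other groups.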
